A study of Mus musculus with 19 samples.

Results

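Protocadherins are cadherin-related adhesion proteins of the plasma membrane, and these results describe their genes in hippocampal slices of mice that lack Fmr1. The members are the rows of the gene tables whose symbol starts with Pcdh, which gave 72 of 14459 genes. Of these, 60 are clustered genes (17 Pcdha, 21 Pcdhb and 22 Pcdhg rows) and 12 are non-clustered genes, written as Pcdh followed by a digit. The rule used names only, and all 72 members passed the filter on low counts in each comparison. The 17 Pcdha rows include 3 whose symbol ends in -g (Pcdha4-g, Pcdha6-g and Pcdha7-g).

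The clustered genes lie in tandem arrays. In the alpha and gamma arrays each variable exon has its own promoter and is spliced to constant exons shared by the whole array, while beta genes are single coding exons. A neuron expresses a mixture of isoforms, and like isoforms on facing membranes recognise each other, which lets a neuron tell its own branches from those of others. The C-type isoforms at the end of the alpha and gamma arrays are expressed more uniformly among cells. Non-clustered protocadherins are separate genes, grouped by their cytoplasmic motifs into a delta-1 group (Pcdh1, Pcdh7, Pcdh9, Pcdh11x), a delta-2 group (Pcdh8, Pcdh10, Pcdh17, Pcdh18, Pcdh19) and others (Pcdh12, Pcdh15, Pcdh20), and they act in axon growth, synapse formation and synapse remodelling. The product of Fmr1, FMRP, binds neuronal mRNAs and ribosomes, and its loss causes fragile X syndrome.

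The mice were male C57BL/6 animals aged 28 to 35 days, either Fmr1 knockout (KO) or wild-type littermates (WT), and no other allele or drug separated the groups. Acute transverse hippocampal slices of 400 µm recovered at 30 °C for 3 to 4 h and were lysed with cycloheximide, a blocker of elongation, at 100 µg/ml in both genotypes. Each replicate pooled 8 to 10 slices from 6 to 8 mice, so spread between single mice is not seen. The labels' protocol describes cutting away CA3 to enrich CA1, whereas the source name is hippocampal-cortical. Each lysate gave a cytoplasmic RNA library and a library of ribosome footprints, the mRNA stretches covered by ribosomes after nuclease digestion. The tables held 14 libraries, 3 KO and 4 WT for each assay, and the other 5 of the 19 labelled samples are not analysed here. Slices hold all cell types of the tissue, so fewer cells of a type and less RNA per cell cannot be told apart.

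Fmr1 was checked first. Its footprints were 4.81 ± 0.222 TPM in KO (SD, n = 3) and 44.4 ± 1.53 TPM in WT (SD, n = 4), where TPM is abundance scaled to gene length and to the library total. Its RNA was 4.42 ± 0.771 and 17.3 ± 1.46 TPM, so every library matched its genotype label. Library totals were 4.97 to 9.96 M estimated counts for RNA and 15.57 to 22.71 M for footprints. No deposited value lay below 0.88 TPM, so levels near 1 TPM are at a floor. The direction that separates replicates 1 and 2 from 3 and 4 held 2.097% of the within-group variance in RNA and 3.79% in footprints, against 16.9% to 35.1% for each other direction. Spread between replicates may therefore be understated, and p-values may be too small. Markers of hippocampal fields were present, among them the CA1 marker Wfs1 at 86.1 ± 3.85 TPM of WT footprints (SD, n = 4). Grik4, a marker of the CA3 field that the protocol describes cutting away, was at 14.1 ± 0.325 TPM.

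Ribosome footprints of the protocadherins were lower in KO. With edgeR's quasi-likelihood test and Benjamini-Hochberg adjustment over 14438 genes, 31 of 72 members fell and 0 rose at an adjusted p under 0.05. Of all genes tested, 10.4% fell and 8.15% rose. Without adjustment, 45 members were lower and 0 higher at p under 0.05, against 2311 lower and 2212 higher of the 14438 genes. Neither DESeq2 nor limma called a member higher. The median log2 fold change of KO over WT was -0.16 over the 72 members, against -0.00015 over all genes tested. Of the members, 66 lay below 0, compared with 50.0% of all genes. By the length used for TPM, members were 1.677 to 3.205 times as long as the median gene. With the trend on gene length removed, 29 members were called lower, against 9.97% of all genes, and 63 lay below 0. The median was then -0.12 for clustered and -0.15 for non-clustered members, against -0.14 and -0.19 in the main test. For 42 of 72 members the highest KO library was below the lowest WT library, against 15.6% of all genes. The reverse order was seen for 1 member, Pcdhb11 of the beta array, against 15.1% of all genes.

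**Figure D1:**
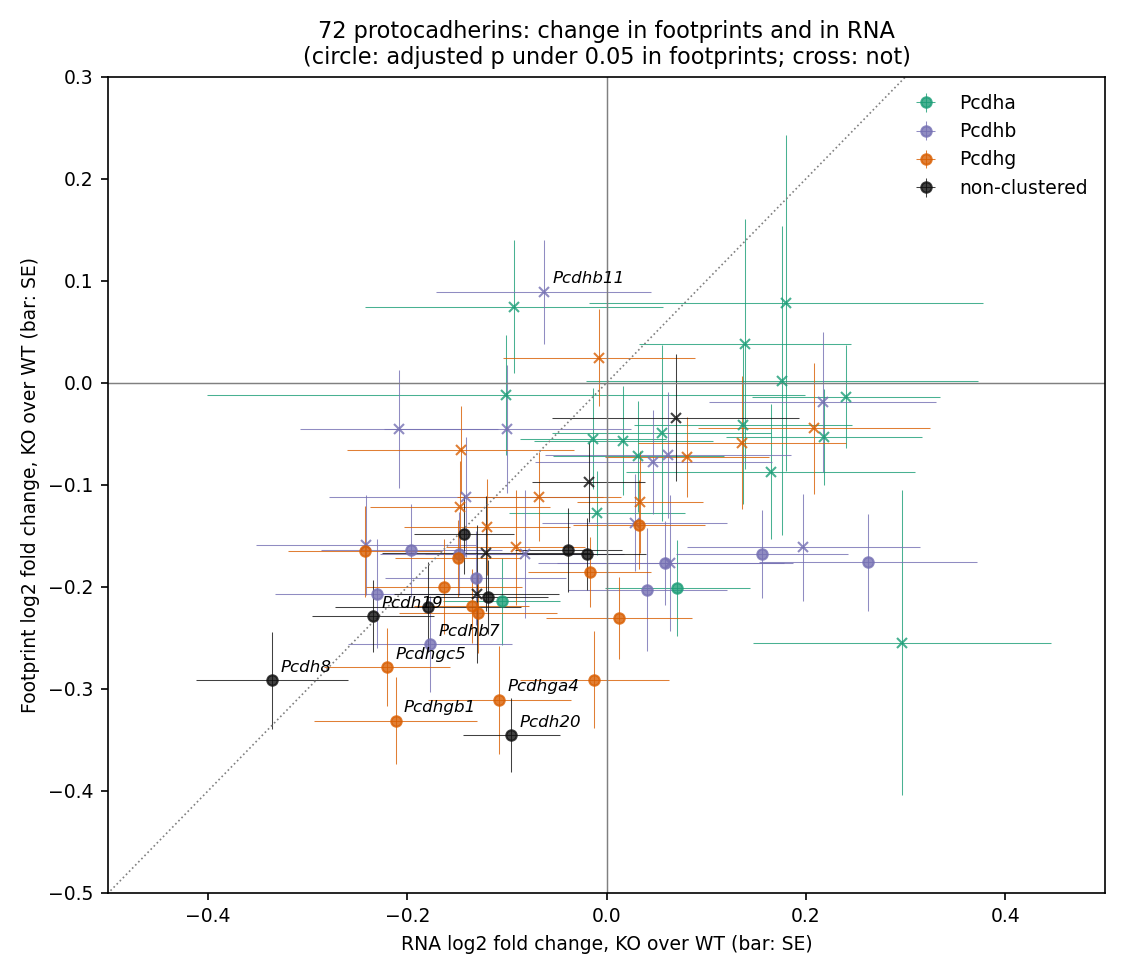
Log2 fold change of KO over WT in footprints (vertical axis) against that in RNA (horizontal axis) for the 72 protocadherins, with SE bars, coloured by gene group. Circles mark the 31 members with an adjusted p under 0.05 in footprints, all of which lie below 0. The dotted line marks equal change in both assays.

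The non-clustered genes are taken first. All 12 had a footprint log2 fold change below 0 (median -0.19) and 8 were called lower, against 10.4% of all genes. The KO range lay below the WT range for 11 of the 12, against 15.6% of all genes. The exception was Pcdh12, an endothelial protocadherin that was at the floor with 1.04 ± 0.03 TPM in WT (SD, n = 4).

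The largest footprint fall was that of Pcdh20, a non-clustered protocadherin outside the delta groups. Its footprints were 67.8, 68.5 and 71.1 TPM in the 3 KO libraries and 86.2, 89.1, 87.3 and 86.9 TPM in the 4 WT libraries. The groups were far apart compared with the spread inside each of them. The log2 fold change was -0.35 ± 0.04 (SE; edgeR adjusted p = 3.67e-04). Its RNA was 90.4, 87.5 and 86.7 TPM in KO and 96.0, 92.1, 92.7 and 95.5 TPM in WT. These RNA groups did not overlap either, but the RNA log2 fold change of -0.10 ± 0.05 did not pass (edgeR adjusted p = 0.285).

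In the delta-2 group 4 of 5 members fell in footprints, against 10.4% of all genes, with a median of -0.21. Pcdh8, also called arcadlin, is induced by neuronal activity and takes part in the internalisation of N-cadherin. Its footprints were 115, 104 and 115 TPM in KO and 133, 145, 134 and 131 TPM in WT. All KO values were lower, by -0.29 ± 0.05 on the log2 scale (SE; edgeR adjusted p = 0.00247). Pcdh19, an X-linked gene whose mutations cause a female-limited epilepsy, had 29.6, 28.4 and 28.8 TPM in KO and 34.8, 33.6, 34.1 and 32.4 TPM in WT. Its fall was -0.23 ± 0.04 (edgeR adjusted p = 0.00201). Pcdh17, which acts in presynaptic vesicle assembly, had 38.3, 38.7 and 39.5 TPM in KO and 45.2, 45.7, 44.1 and 43.7 TPM in WT. It fell by 0.21 on the log2 scale (edgeR adjusted p = 0.00322). Pcdh10, linked to autism and to synapse elimination, had 39.3, 42.6 and 39.6 TPM in KO and 44.9, 46.3, 45.6 and 43.8 TPM in WT. Its change of -0.16 ± 0.04 passed (edgeR adjusted p = 0.0179), but not without KO library 1 or KO library 3. Pcdh18 is a low-abundance member with 3.38 ± 0.0810 TPM in KO and 3.78 ± 0.199 TPM in WT, and its value of -0.17 did not pass (edgeR adjusted p = 0.107).

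In the delta-1 group 3 of 4 members fell, again beside 10.4% of all genes. Pcdh9, which is widely expressed in forebrain neurons, had 96.4, 96.3 and 95.9 TPM of footprints in KO and 106, 111, 105 and 108 TPM in WT. The 3 KO libraries were nearly equal and all lower, by -0.17 ± 0.04 (SE; edgeR adjusted p = 0.00785). Pcdh11x, an X-linked gene, had 6.73, 6.53 and 6.31 TPM in KO and 7.57, 7.34, 7.40 and 7.94 TPM in WT. It fell by 0.22 on the log2 scale (edgeR adjusted p = 0.00594). Pcdh1 was the most abundant non-clustered member, with 185, 190 and 191 TPM in KO and 208, 216, 206 and 202 TPM in WT. Its change was -0.15 ± 0.04 (edgeR adjusted p = 0.0209) and did not pass without KO library 1 or WT library 2, or with the trend on gene length removed. Pcdh7 was the delta-1 member that did not pass, at -0.10 ± 0.04 (edgeR adjusted p = 0.109), although its KO libraries of 48.1 to 49.8 TPM all lay below the WT range of 50.2 to 54.8 TPM. Pcdh15, a component of the tip link of sensory hair cells, had 2.58 ± 0.115 TPM in KO and 2.97 ± 0.184 TPM in WT, and its -0.21 ± 0.07 did not pass (edgeR adjusted p = 0.0527).

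**Figure D2:**
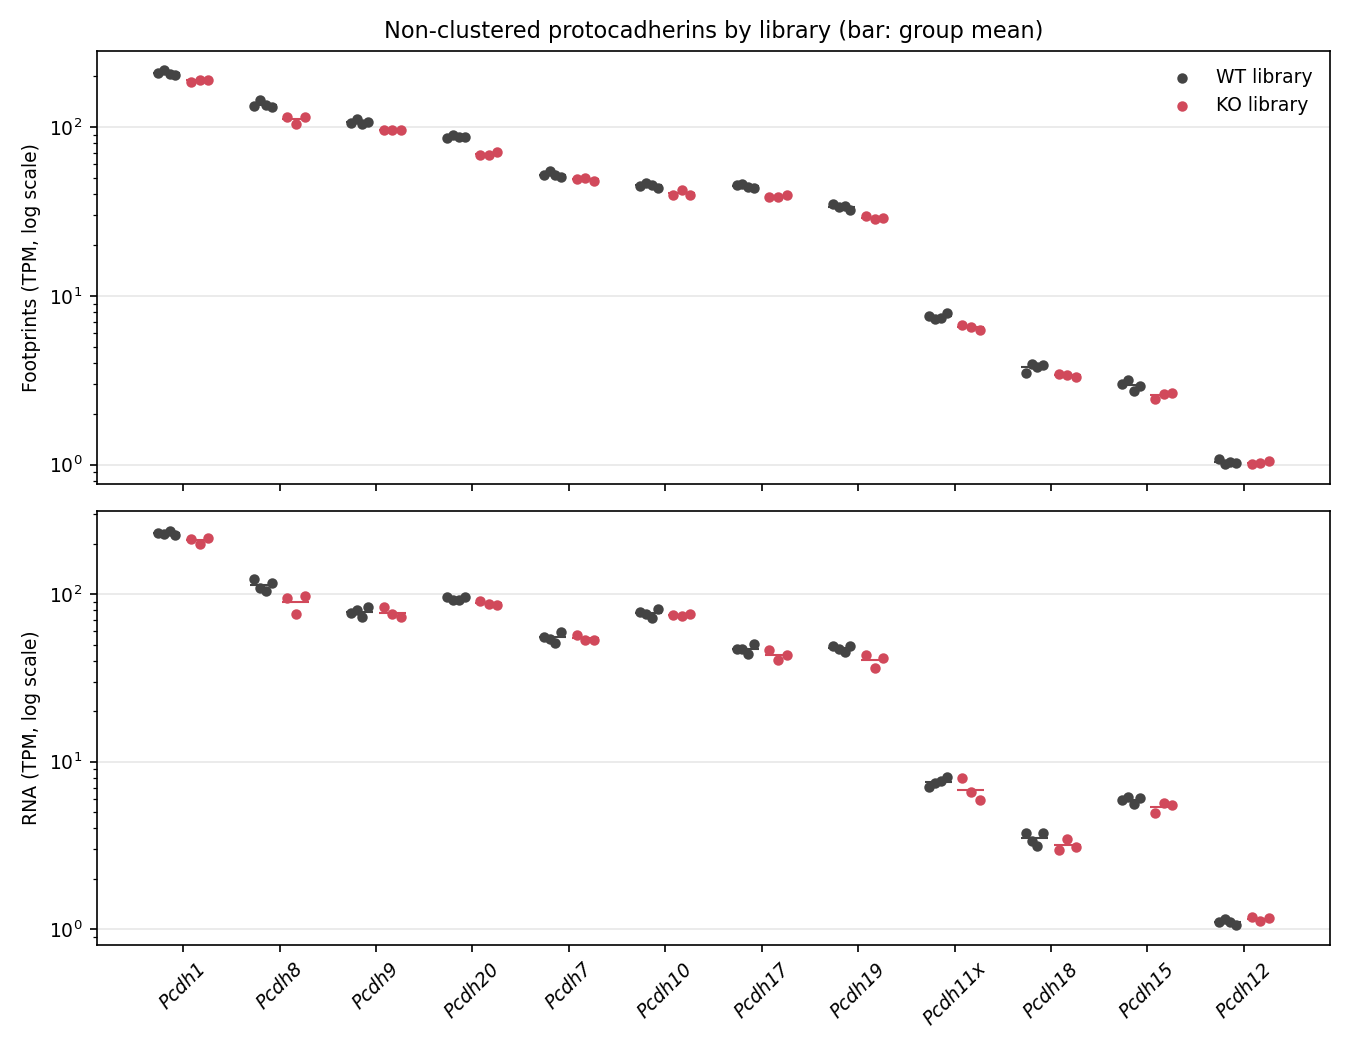
Footprints (upper panel) and RNA (lower panel) of the 12 non-clustered protocadherins in TPM on a log scale, with a point for each library and a bar for each group mean, WT in grey and KO in red. In footprints the KO points lie below the WT points for 11 of 12 genes; in RNA they do so for 4 of 12.

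In RNA the median log2 fold change of the 72 members was -0.029, against -0.16 in footprints. RNA was also measured less precisely, with a median SE of 0.090 against 0.048 and a median WT count of 93.5 against 451. The numbers of calls in the 2 assays are therefore not directly comparable. Of the 31 members called lower in footprints, 24 had an RNA change below 0 and 7 above, with a median of -0.13. Of 72 members, 2 fell and 0 rose (edgeR adjusted p under 0.05), against 2.77% and 2.11% of all 13877 genes tested. At an unadjusted p under 0.05, 8 of 72 were lower and 1 higher, against 1500 lower and 1341 higher of the 13877 genes. DESeq2 called 3 lower and 0 higher, and limma called none. The 2 members called in edgeR were both delta-2 genes. RNA of Pcdh8 was 95.2, 76.0 and 97.9 TPM in KO and 123, 109, 104 and 117 TPM in WT. KO library 2 was the lowest, and the change was -0.34 ± 0.08 (SE; edgeR adjusted p = 0.0222). RNA of Pcdh19 was 43.3, 36.5 and 41.4 TPM in KO and 48.7, 47.0, 44.98 and 49.3 TPM in WT, again lowest in KO library 2, with a change of -0.23 ± 0.06 (edgeR adjusted p = 0.0395). Neither passed with limma. Pcdh8 did not pass when KO library 2, WT library 1 or WT library 4 was left out. Pcdh19 passed when KO library 3 was left out but not when any of the other 6 libraries was, where its edgeR adjusted p reached 0.162. Over the 12 non-clustered genes the median RNA change was -0.12, with 11 below 0, and KO lay below WT without overlap for 4 of them against 10.0% of all genes.

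The promoters of the 2 genes with lower RNA, Pcdh8 and Pcdh19, and of Pcdh20, whose footprints fell most, are shown because these genes carry the RNA calls and the largest footprint fall. Each runs 5′ to 3′ over 300 bases, from 250 bases before the start of transcription to 50 after it, from RefSeq on GRCm38. The capitals mark CGCT or its reverse complement AGCG, the core letters of the element shared by the promoters of clustered protocadherins.
Pcdh8, chr14:79771263-79771562, minus strand: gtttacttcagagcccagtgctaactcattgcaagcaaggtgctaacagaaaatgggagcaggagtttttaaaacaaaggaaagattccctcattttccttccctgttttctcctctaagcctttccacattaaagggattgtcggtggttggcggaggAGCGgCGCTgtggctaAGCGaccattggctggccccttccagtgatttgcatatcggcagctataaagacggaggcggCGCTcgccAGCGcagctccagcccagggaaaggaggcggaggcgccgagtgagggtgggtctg
Pcdh19, chrX:133688944-133689243, minus strand: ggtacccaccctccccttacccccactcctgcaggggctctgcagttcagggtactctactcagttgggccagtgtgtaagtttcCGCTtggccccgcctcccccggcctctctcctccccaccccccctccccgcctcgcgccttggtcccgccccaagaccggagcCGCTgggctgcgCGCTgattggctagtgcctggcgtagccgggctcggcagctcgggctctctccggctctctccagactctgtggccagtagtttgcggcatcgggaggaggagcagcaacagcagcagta
Pcdh20, chr14:88471347-88471646, minus strand: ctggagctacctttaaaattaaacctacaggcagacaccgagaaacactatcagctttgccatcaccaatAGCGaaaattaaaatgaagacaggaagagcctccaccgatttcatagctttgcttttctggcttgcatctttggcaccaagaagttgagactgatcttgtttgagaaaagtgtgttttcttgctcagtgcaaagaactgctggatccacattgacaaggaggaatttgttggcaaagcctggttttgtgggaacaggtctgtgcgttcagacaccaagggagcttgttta
The letters occur 5 times in the Pcdh8 window, 3 times in that of Pcdh19 and once in that of Pcdh20. Of 32851 promoters of the same length, 61.79% hold at least 1 match. Among members whose RNA was not called, the windows of Pcdh10, Pcdh18 and Pcdh15 hold 8, 7 and 4 matches, and that of Pcdh9 holds 2. The TATA box letters TATAAA, searched on both strands, occur once for Pcdh8 and in 13.62% of all promoters. The cAMP response element TGACGTCA was in none of the 3 windows and in 1.79% of all promoters. CpG pairs numbered 14 for Pcdh8, 18 for Pcdh19 and 4 for Pcdh20, against a median of 7. These matches describe letters only.

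Levels of the non-clustered genes spanned a wide range in WT. In RNA the order was Pcdh1 at 230.5 ± 5.38 TPM (SD, n = 4), Pcdh8 at 113 ± 8.28, Pcdh20 at 94.1 ± 1.95, Pcdh9 at 78.3 ± 4.62, Pcdh10 at 77.0 ± 4.10, Pcdh7 at 55.1 ± 3.43, Pcdh19 at 47.5 ± 1.95 and Pcdh17 at 47.1 ± 2.76. Then came Pcdh11x at 7.55 ± 0.427, Pcdh15 at 5.93 ± 0.219, Pcdh18 at 3.50 ± 0.3 and Pcdh12 at 1.11 ± 0.0398 TPM. Pcdh9 and Pcdh10 overlapped, as did Pcdh19 and Pcdh17. In footprints Pcdh9 stood above Pcdh20, and Pcdh10 and Pcdh17 overlapped.

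Among the clustered genes 23 of 60 fell in footprints and 0 rose, against 10.4% and 8.15% of all genes. The median log2 fold change was -0.14, with 54 members below 0. The count of 23 was 12 with same-numbered KO and WT libraries as blocks, 15 without KO library 1 and 16 with DESeq2. The called members had a median fold change of -0.20, a median WT count of 728 and a median SE of 0.04, and those not called had -0.07, 284 and 0.06. Reads from the shared constant exons and from near-identical variable exons must be split among isoforms by RSEM, so values of single clustered genes are estimates. In GRCm38 the arrays lie on chromosome 18, with Pcdha at 36930285 to 37188897, Pcdhb at 37294840 to 37521419 and Pcdhg at 37661775 to 37841873.

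The products of the gamma array are required for survival of some interneurons and for dendrite self-avoidance. In this array 12 of 22 members were lower (median -0.16), against 10.4% of all genes. These were 7 of 12 Pcdhga, 2 of 7 Pcdhgb and all 3 C-type genes. Pcdhgb1 changed most, with footprints of 13.3, 14.1 and 13.3 TPM in KO and 16.5, 17.4, 16.9 and 17.2 TPM in WT. All KO libraries lay below WT, by -0.33 ± 0.04 (SE; edgeR adjusted p = 8.78e-04). The C-type Pcdhgc5 was the most abundant clustered gene in footprints, with 159, 159 and 158 TPM in KO and 187, 200, 195 and 185 TPM in WT. It fell by 0.28 on the log2 scale (edgeR adjusted p = 0.00123). Pcdhgc3, the C-type isoform with the highest RNA, had 61.6, 65.4 and 63.3 TPM in KO and 72.9, 73.0, 73.2 and 74.5 TPM in WT, a change of -0.22 ± 0.04 (edgeR adjusted p = 0.00250). Pcdhgc4, the C-type isoform known for neuronal survival, fell by 0.17 on the log2 scale (edgeR adjusted p = 0.00912). Pcdhga6 had 12.7, 11.6 and 12.8 TPM in KO and 15.8, 15.0, 14.5 and 15.1 TPM in WT, a change of -0.29 ± 0.05 (edgeR adjusted p = 0.00254). Pcdhga11, the most abundant Pcdhga gene in RNA, changed by -0.19 ± 0.03 (edgeR adjusted p = 0.00435). The least abundant gamma gene, Pcdhgb8, had 1.90 ± 0.115 TPM in KO and 1.94 ± 0.0756 TPM in WT and did not pass (edgeR adjusted p = 0.866).

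In the beta array 9 of 21 members fell (median -0.16), against 10.4% of all genes. Beta genes lack the shared constant exons and encode isoforms with short cytoplasmic ends. Pcdhb7 had footprints of 6.97, 7.42 and 7.40 TPM in KO and 8.59, 8.64, 8.55 and 8.74 TPM in WT. The WT libraries were nearly equal and all above KO, with a log2 fold change of -0.26 ± 0.05 (SE; edgeR adjusted p = 0.00398). Pcdhb18, Pcdhb20, Pcdhb22 and Pcdhb17 changed by -0.17 to -0.19 with edgeR adjusted p from 0.0120 to 0.0227. These 4 did not pass in DESeq2, and when KO library 1 was left out Pcdhb20 still passed and the other 3 did not. Pcdhb17 also did not pass without KO library 3 or WT library 2. Pcdhb9, the beta gene with the highest RNA, changed by -0.20 ± 0.06 (edgeR adjusted p = 0.0359), but KO library 2 at 12.0 TPM lay inside the WT range of 11.8 to 12.7 TPM. That call was lost in limma, with the replicate set as a covariate and without any of KO library 1, KO library 3, WT library 2, WT library 3 or WT library 4. Pcdhb6, the beta gene with the lowest RNA, was 3.17 ± 0.0234 TPM in KO and 3.32 ± 0.191 TPM in WT and did not pass (edgeR adjusted p = 0.698).

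The alpha array, which serves serotonergic axon spreading, had 2 of 17 members lower, a share near the 10.4% of all genes, with a median footprint change of -0.05. The C-type Pcdhac2 had footprints of 27.2, 27.3 and 25.6 TPM in KO and 28.9, 31.9, 31.6 and 30.9 TPM in WT. It fell by 0.21 on the log2 scale (edgeR adjusted p = 0.00619). Pcdha12 had 10.8, 11.1 and 10.3 TPM in KO and 11.7, 12.8, 12.6 and 12.0 TPM in WT, a change of -0.20 ± 0.05 (edgeR adjusted p = 0.0119). Pcdhac1, the other alpha C-type gene, had 4.22 ± 0.149 and 4.36 ± 0.110 TPM and did not pass (edgeR adjusted p = 0.701). Pcdha5 at -0.13 ± 0.04 did not pass (edgeR adjusted p = 0.0602), though its KO libraries of 9.08 to 9.53 TPM lay below the WT range of 9.89 to 10.2 TPM. Pcdha8 had the lowest RNA of the alpha rows, 1.38 ± 0.205 TPM in WT, and its footprints of 1.26 ± 0.0685 TPM did not pass (edgeR adjusted p = 0.761). The 3 rows ending in -g were low in footprints, at 1.12 to 2.11 TPM on average in WT, and none passed. RNA of Pcdha6 had a coefficient of variation of 39.6% over the 7 libraries, against 7.42% for its sum with Pcdha6-g, so these rows are best read together.

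RNA of the clustered genes did not pass for any member, in either direction, with edgeR. At an unadjusted p under 0.05, 5 of 60 were lower and 1 higher, against 1500 lower and 1341 higher of all 13877 genes. DESeq2 called 1 lower (Pcdhgc5) and limma none. The median RNA change was -0.01, with 32 of 60 below 0. RNA of Pcdhgc5 was 102, 87.3 and 101 TPM in KO and 113, 115, 117 and 106 TPM in WT. The groups did not overlap, and the change of -0.22 ± 0.06 had an edgeR adjusted p of 0.0565. Without KO library 3, Pcdhgc5 and Pcdhgc3 passed. The arrays differed in their RNA medians, which were 0.07 for Pcdha, -0.06 for Pcdhb and -0.10 for Pcdhg. The test of a difference between arrays was not run. For clustered genes KO lay below WT without overlap in 9 and above it in 2 (Pcdha11 and Pcdhb2), against 10.0% and 9.03% of all genes.

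Summed over each array, footprints were lower in every KO library than in every WT library, and the sums are given without a test. Pcdhg footprints were 514, 520 and 510 TPM in KO and 576, 604, 599 and 588 TPM in WT, a change of -13.1%. Pcdhb footprints were 151, 154 and 151 TPM in KO and 166, 168, 168 and 166 TPM in WT, a change of -9.16%. Pcdha footprints were 111, 111 and 108 TPM in KO and 113, 120, 117 and 118 TPM in WT, a change of -6.20%. The difference was thus smallest in the alpha array, where the 2 groups nearly met. The non-clustered sum went from 730 ± 18.8 TPM in WT to 636 ± 5.34 TPM in KO, a change of -12.8%. In RNA the Pcdhg sum changed by -7.24% and the non-clustered sum by -8.77%, both without overlap of the groups. The Pcdha and Pcdhb RNA sums overlapped, at 158.9 ± 7.77 TPM in WT and 159.5 ± 8.07 TPM in KO for Pcdha and at 131 ± 5.83 and 129 ± 7.22 TPM for Pcdhb. Within the alpha array, Pcdhac2 RNA was 74.2 ± 3.74 TPM in WT and 69.3 ± 5.95 TPM in KO. RNA of the 15 alpha rows that are not C-type summed to 74.4 ± 4.68 TPM in WT and 79.9 ± 2.19 TPM in KO. Both pairs of groups overlapped. Footprints of these 15 rows changed by -3.66% in sum.

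**Figure D3:**
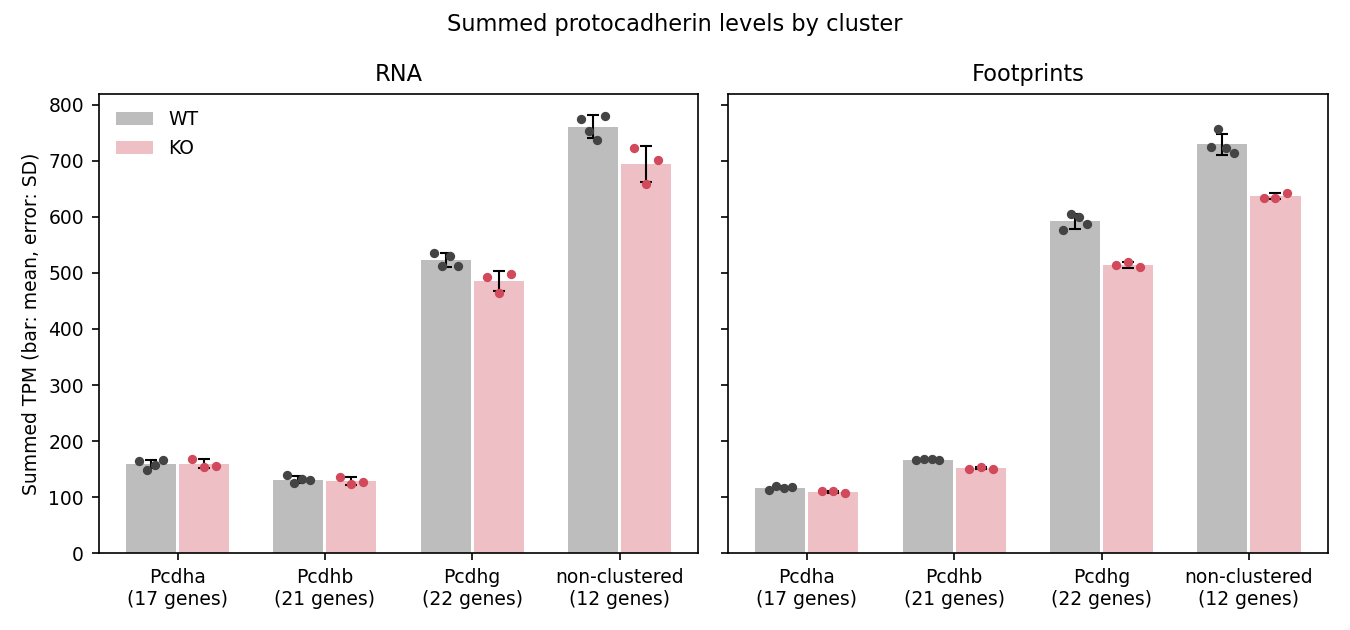
Summed TPM of the Pcdha, Pcdhb and Pcdhg arrays and of the non-clustered genes in RNA (left) and footprints (right). Bars are group means from 0, error bars are SD, and points are libraries (4 WT, 3 KO). In footprints the KO points lie below the WT points in all 4 sums; in RNA they do so for Pcdhg and the non-clustered genes.

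Translational efficiency is the footprint change beyond the RNA change, and its difference between genotypes was tested in a joint model of the 14 libraries. No member passed in edgeR, and of all genes tested 0.0208% were called lower and 0.0139% higher. At an unadjusted p under 0.05, 14 of 72 members were lower and 0 higher, against 843 lower and 721 higher of 14435 genes. The median was -0.11 over clustered and -0.09 over non-clustered members, against -0.01 over all genes. Pcdh20 came nearest, at -0.26 ± 0.06 (SE; edgeR adjusted p = 0.0796). DESeq2 called it at -0.25 (adjusted p = 0.0121), as did edgeR without KO library 3 (adjusted p = 0.0488), and limma called none. For Pcdh8 and Pcdh19, whose RNA fell, the efficiency values were 0.04 ± 0.09 and -0.00 ± 0.07.

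Footprints per RNA, the ratio of the 2 TPM values of a lysate, differed widely among members in WT. The median was 1.15 for clustered and 0.943 for non-clustered genes, against 0.785 over all genes. The gene length used for TPM is the same in both assays, so it cancels in this ratio, but the untranslated share of each mRNA does not. The lowest ratios outside the -g rows were in the alpha C-type genes, with 0.416 ± 0.0305 for Pcdhac2 (SD, n = 4) and 0.422 ± 0.0289 for Pcdhac1. In the gamma array Pcdhgc3 had 0.562 ± 0.0163 and another C-type gene, Pcdhgc5, had 1.704 ± 0.0457, with no overlap between lysates. Pcdhgc3 therefore made up 25.0% of Pcdhg RNA and 12.4% of Pcdhg footprints in WT, whereas Pcdhgc5 made up 21.5% of RNA and 32.4% of footprints. Pcdhac2 made up 46.7% of Pcdha RNA and 26.3% of footprints. Of the other clustered genes, Pcdhb2 had 2.17 ± 0.210 and Pcdhgb1 1.96 ± 0.107. Pcdha6 had the highest ratio, 3.44 ± 1.54, which rests on RNA split with its -g row. Among non-clustered genes the ratio ran from 0.501 ± 0.0170 for Pcdh15 and 0.588 ± 0.0423 for Pcdh10 to 1.38 ± 0.0632 for Pcdh9.

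**Figure D4:**
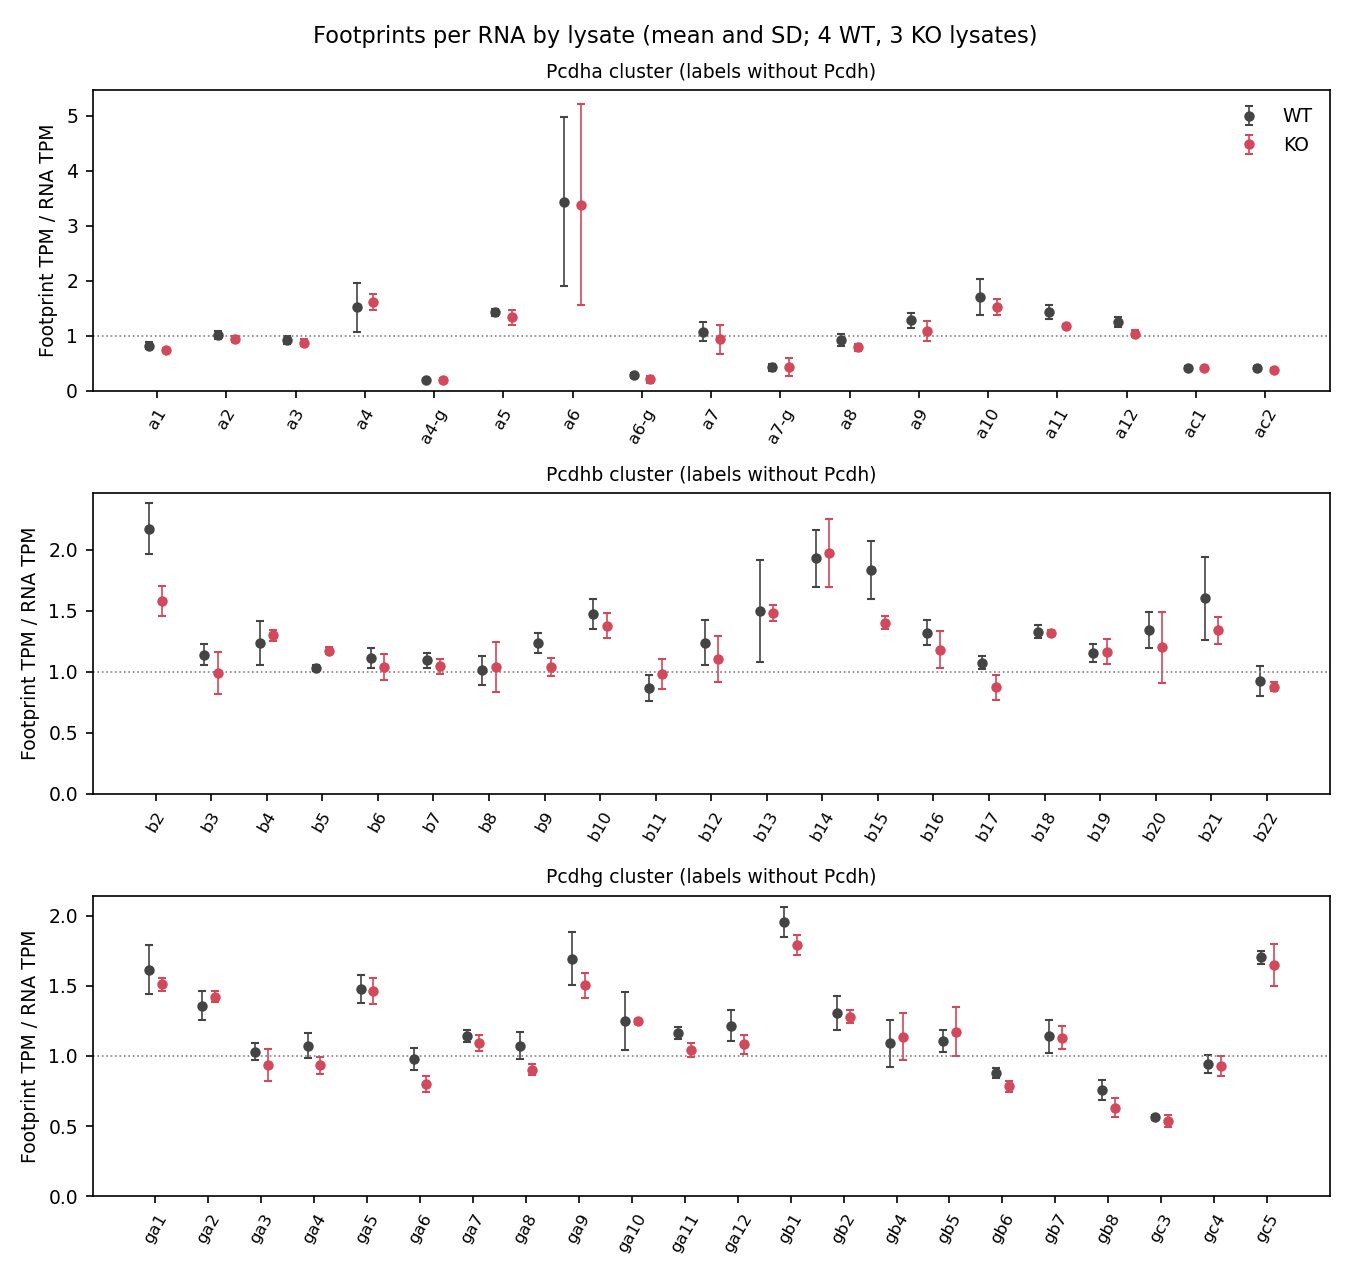
Footprint TPM over RNA TPM of the same lysate for the clustered genes, by array, as mean and SD of 4 WT (grey) and 3 KO (red) lysates; the dotted line marks a ratio of 1. The C-type genes Pcdhac1, Pcdhac2 and Pcdhgc3 lie well below 1, and Pcdhgc5 stands at 1.704 in WT.

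Genes that work with protocadherins were read from general-knowledge lists, whose counts stand beside 10.4% of all genes lower and 8.15% higher in footprints. Of 35 other cadherin superfamily genes, 17 fell in footprints, with a median of -0.17. Examples were Cdhr1, a protocadherin-related protein of photoreceptors, at -0.45 ± 0.06 (SE; edgeR adjusted p = 0.00122), the giant cadherin Fat3 at -0.33, the calsyntenin Clstn3 at -0.26 and the membrane-anchored Cdh13 at -0.23. Catenins, which join classical cadherins to actin, had 5 of 11 higher, such as Ctnna2 at 0.25 and Ctnnd1 at 0.26, and 1 lower, Pkp4 at -0.31. Cohesin, CTCF and other regulators of promoter choice had 3 of 23 higher, a share not far from that of all genes: the DNA methyltransferase Dnmt3a at 0.30, the cohesin subunit Smc1a at 0.24 and Trim28 at 0.18. Smc3, another cohesin subunit, did not pass (0.15 ± 0.05, edgeR adjusted p = 0.0606). Cytoplasmic partners and processing enzymes had 7 of 31 higher and 4 lower, including the WAVE subunit Wasf1 at 0.15 and the receptor kinase Ret at -0.32.

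Markers of several cell types moved with genotype as well, again beside 10.4% of all genes lower and 8.15% higher. In footprints 10 of 11 microglial markers fell, and their summed level was 557 to 595 TPM in KO and 668 to 697 TPM in WT. Of 10 meningeal fibroblast markers 7 fell, with sums of 274 to 277 TPM in KO and 348 to 395 TPM in WT. Among interneuron markers 6 of 12 fell and 1 rose, with overlapping sums of 3933 to 4276 and 4155 to 4480 TPM. Oligodendrocyte precursors had 4 of 8 lower, with sums of 368 to 389 and 403 to 421 TPM. Oligodendrocyte markers had 5 of 9 lower and 1 higher, and endothelial and mural markers had 4 of 12 lower, both with overlapping sums. Of 8 thalamic markers 4 rose, and of 8 excitatory neuron markers 2 rose, with a median of 0.00095. CA1 markers had 2 of 7 lower and 1 higher, with Wfs1 at -0.41 ± 0.05 in footprints (SE; edgeR adjusted p = 7.06e-04) and -0.52 ± 0.06 in RNA. CA3 markers had 2 of 6 lower, with Grik4 at -0.38 ± 0.04 in footprints (edgeR adjusted p = 3.46e-04) and -0.24 ± 0.06 in RNA. The remaining lists were astrocyte, with 2 of 11 lower and 1 higher, dentate granule, with 2 of 7 lower and 1 higher, and choroid plexus, with 1 of 3 lower and 1 higher. The part of these shifts in the protocadherin result was not tested.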

How the data were processed

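The authors deposited estimated counts and TPM per gene for 14 libraries. Per the submitters' processing notes, the tools were cutadapt 1.7.1, Trimmomatic 0.32, Bowtie2 2.1.0, TopHat2 2.0.9, SAMtools 0.0.19, bedtools and RSEM 1.2.11, with mm10. The annotation and the source of the floor near 1 TPM are not given in the sources used here. No deposited count is a whole number, and whether values were adjusted between replicate sets is not stated.

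Estimated counts were rounded and tested in R 4.3.3 with edgeR 4.0.16 (minimum count 10, TMM, robust quasi-likelihood test, adjusted p under 0.05 over all genes tested). SE was obtained from the fold change and its F statistic. Levels, sums and ratios used the deposited TPM, in Python 3.11.15 with pandas 2.3.3. Alternatives were DESeq2 1.42.0, limma 3.58.1 on log2 of TPM plus 1 or plus 0.1, other scalings, no filter, a replicate block, replicate set as a covariate, removal of the trend on gene length, and leaving out each library. The tests were checked on simulated counts with the same spread setting for every gene. Such counts cannot show whether the replicate spread in these data is understated. Of the members, 69 matched RefSeq genes and 3 did not.

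Same-numbered KO and WT libraries had correlations of -0.47 to 0.04. Little variance separates replicates 1 and 2 from 3 and 4, which by itself ties KO library 3 to WT libraries 1 and 2. In footprints KO library 3 correlated at 0.42 and 0.37 with WT libraries 1 and 2, and at -0.47 and -0.36 with 3 and 4. These correlations therefore cannot decide whether the numbers mark pairs. The main test used no pairs, since the labels do not say what equal numbers share. The shared lysate of RNA and footprints is stated in the labels' protocol, and as a block it changed no efficiency call. RNA and footprint libraries of the same number deviated together only weakly, with correlations of -0.054 to 0.199. For libraries of different numbers within a genotype the range was -0.166 to 0.113. The ratios per lysate thus rest on the stated protocol. The labels call each library a biological replicate of pooled slices.

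The members and gene lists were chosen with earlier results of these data known. All non-clustered members are named; of each array, the C-type genes, up to 4 with the smallest footprint p, up to 3 with the highest and the 1 with the lowest WT RNA, and those called in RNA or efficiency; of each list, up to 4 with the smallest footprint p. Pcdhb11, Pcdha11, Pcdhb2 and Pcdhga3 were named after their values were seen.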

Additional observations from a re-analysis of the deposited data

Results flagged for a closer look

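In WT groups of 4 libraries, 4 values stood far from the other 3, among 146 groups examined; chance alone gives about 1 in 20. Footprints of Pcdha5 were 9.892 TPM in WT library 4, against 10.18 to 10.23 TPM in the others. Footprints of Pcdhb17 were 9.697 TPM in the same library, against 9.967 to 10.01 TPM. Footprints of Pcdhb2 were 8.456 TPM in WT library 1, against 7.925 to 8.009 TPM. RNA of Pcdhga3 was 21.84 TPM in WT library 2, against 22.88 to 23.02 TPM.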

How the results depend on the processing

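The count of clustered members with lower footprints, 23, was 12 with the replicate block and 15 to 22 when a library was left out, lowest without KO library 1. The non-clustered count of 8 was 8 with the block, 7 with the length trend removed, 9 with limma on log2(TPM + 0.1) and 6 to 9 without single libraries, lowest without KO library 1. The calls of Pcdhb9, Pcdhb17, Pcdhb18, Pcdhb20 and Pcdhb22 were lost with the block. The clustered median was -0.12 with limma on log2(TPM + 1) and -0.12 with the length trend removed, and ran from -0.15 to -0.11 without single libraries. The non-clustered median was -0.16 and -0.15 under the same settings and ran from -0.21 to -0.16. Of the 31 members with lower footprints, 18 passed in all 16 alternatives. Pcdh12 turned to 0.0018 with the length trend removed, and Pcdhgb8 ran from -0.0733 to 0.00063 without single libraries, turning without KO library 2. In RNA the clustered count of 0 was 1 with DESeq2 and 0 to 2 without single libraries. The non-clustered RNA count of 2 was 0 with limma at both pseudocounts, 1 with the replicate block, 1 with the replicate set as a covariate and 0 to 2 without single libraries. The efficiency count of 0 for non-clustered members was 1 with DESeq2 and 0 to 1 without single libraries. The cause of these shifts was not tested. Depth limits the low members: 5 of 72 averaged under 2 TPM in footprints and 2 in RNA, near the floor, where folds are compressed.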
